A study of Mus musculus with 6 samples.

Results

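Genes that move, buffer and sense zinc were followed in the distal jejunum of mice that lack the nuclear receptor gene Hnf4a in the intestinal epithelium. The set held 10 genes out of 18193 measured, namely the metallothionein genes Mt1 and Mt2, the zinc-sensing factor gene Mtf1, the exporter genes Slc30a1, Slc30a2 and Slc30a10, and the importer genes Slc39a4, Slc39a5, Slc39a8 and Slc39a14. Members were chosen by gene family with earlier results of these data known, and for each the brightest probe set that carries a single gene symbol was read. Brightness here was the mean level over the 6 arrays, so the pick of the probe set did not use the difference between the groups. The choice of the members themselves was not independent of these data. All 10 were measured and read above the median probe set on each of the 6 arrays.

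The study compared 3 mutant and 3 control littermates, killed at 7 months of age after an injection of ketamine and xylazine, with 1 array of total RNA per animal. In the mutants the floxed Hnf4a allele was deleted by Cre under the control of a villin transgene, which is active in the epithelium of the intestine and not in stroma, muscle or immune cells. All 6 animals carry the strain label B6.129X1(FVB)-Hnf4atm1.1Gonz/J, and the sources used here do not say whether the controls carried the transgene. The RNA came from whole jejunum, and all 8 measured enterocyte markers read above the median probe set on each array. Their mean log2 signal was 12.43, 12.61 and 12.48 in mutants 1, 2 and 3, against 12.77, 12.69 and 12.74 in controls 1, 2 and 3, lower in every mutant than in any control. The log2 signal of Hnf4a was 8.83, 8.83 and 9.82 in mutants 1, 2 and 3, against 11.82, 11.76 and 11.57 in controls 1, 2 and 3 (log2 difference -2.56 ± 0.25 SE, limma's adjusted p = 0.00756). Its dimmer probe sets differed by -3.06, -2.64 and -1.17 (log2). With every probe set tested, limma's adjusted p was 0.0124, 0.0102 and 0.0774, so the last did not pass. Among the mutants, mutant 3 read highest on each Hnf4a probe set but the last.

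Some arrays stood apart. The 8 measured markers of pancreatic acinar cells averaged a log2 signal of 7.88 in control 3, with all 8 above the median probe set, and 4.36 to 4.51 on the other arrays, with 4 of 8 above it. The 7 measured fat markers averaged 8.74 in mutant 2 and 6.56 to 7.40 on the other arrays. Y-linked transcripts were present in mutant 3 and control 1 and under the median probe set on the other arrays, so each group held 1 male.

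Zinc enters the cytosol through the ZIP proteins, which Slc39 genes encode, and leaves it for the outside or for vesicles through the ZnT proteins, which Slc30 genes encode. Metallothioneins are small cysteine-rich proteins that bind zinc and copper. When zinc rises, the transcription factor MTF1 binds metal response elements in the promoters of Mt1, Mt2 and Slc30a1 and activates them. In the small intestine zinc is taken up from the lumen by ZIP4, the product of Slc39a4, and passed to the blood by ZnT1, the product of Slc30a1.

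The promoters of the 3 genes that MTF1 is known to activate are shown because Mt1 and Mt2 share this regulator. Mt1 was called higher here and Mt2 was not called, with an interval too wide to place it. RefSeq windows of 300 bases, from 250 bases before the annotated start to 50 bases from it on, were available for 8 members, and those of Slc39a4 and Slc39a14 were not analysed here. The core of the metal response element was searched on both strands as TGCACNC and TGCGCNC, where N is any base. The pair of motifs differs at a fixed letter and cannot match at the same place on the same strand. Capitals mark the matches. All 3 windows are on the forward strand of build GRCm38.p6, that of Mt1 at chr8:94178839-94179138, that of Mt2 at chr8:94172368-94172667 and that of Slc30a1 at chr1:191906531-191906830.
Mt1: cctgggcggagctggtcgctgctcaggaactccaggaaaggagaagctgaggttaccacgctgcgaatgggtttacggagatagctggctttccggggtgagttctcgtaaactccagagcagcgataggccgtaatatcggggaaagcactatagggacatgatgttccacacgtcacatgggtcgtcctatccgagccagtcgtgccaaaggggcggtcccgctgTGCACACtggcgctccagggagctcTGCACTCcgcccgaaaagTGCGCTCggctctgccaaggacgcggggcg
Mt2: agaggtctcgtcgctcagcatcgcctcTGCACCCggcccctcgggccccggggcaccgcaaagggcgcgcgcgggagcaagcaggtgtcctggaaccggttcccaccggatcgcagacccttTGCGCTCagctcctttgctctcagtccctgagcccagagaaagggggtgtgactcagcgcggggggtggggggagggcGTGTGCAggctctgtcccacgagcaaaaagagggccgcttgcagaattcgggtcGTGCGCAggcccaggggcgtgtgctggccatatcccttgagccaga
Slc30a1: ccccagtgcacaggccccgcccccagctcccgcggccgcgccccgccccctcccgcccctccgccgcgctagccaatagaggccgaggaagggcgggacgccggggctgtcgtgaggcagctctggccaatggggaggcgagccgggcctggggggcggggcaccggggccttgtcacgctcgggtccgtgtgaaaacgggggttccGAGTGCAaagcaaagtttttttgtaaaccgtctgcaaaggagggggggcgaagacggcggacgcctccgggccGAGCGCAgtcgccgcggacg

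Mt1 and Mt2 are neighbours on chromosome 8, with 0 annotated genes between them. The Mt1 window held 3 matches, all on the strand of the gene, whose first bases lay at -23, 3 and 21 relative to the annotated start. The Mt2 window held 4 matches, 2 on each strand, at -223, -128, -50 and 5. The Slc30a1 window held 2, both on the opposite strand, at -43 and 31. The start used by the table lay 206 bases inside the annotated span of Mt1, 84 bases inside that of Slc30a1 and at the first base of Mt2, so the windows do not cover equivalent stretches. Among all 32851 windows, 25.7% held at least 1 match, 1.97% at least 3 and 0.517% at least 4. Of the 8 members with a window, 7 had at least 1 match in some window, Mtf1 being the exception. Counted by window, as the shares above are, 7 of the 10 member windows held at least 1 match. The starts used for Slc39a8 lay 8397 and 8775 bases inside its annotated span. The Slc30a10 window held 3, of which a pair on opposite strands overlapped.

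Of the 10 members, 4 changed in the mutants. Mt1 and Slc39a8 rose, and Slc30a2 and Slc39a5 fell. A change here means an adjusted p under 0.05 in limma's moderated test over all 18193 genes, which 0.528% of genes passed, 0.198% as higher in the mutants and 0.33% as lower. Because the members were chosen with earlier results known, their count is a description and was not set against this share by a test. Without control 3 and mutant 2 together, 0 of the 10 members passed, and of all genes 1 was called higher and 3 lower. The RNA is from bulk tissue, where fewer cells of a type and less RNA per cell cannot be told apart. The median log2 difference of the members was 0.08, and that of all genes was -0.01. The mutant and control values did not overlap in 6 members, namely these 4 with Slc30a1 and Slc39a14, against 17.1% of all genes. At an unadjusted p under 0.05, which 12.1% of all genes passed, 3 members lay higher and 2 lower, beside 5.24% and 6.85% of all genes.

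**Figure D1:**
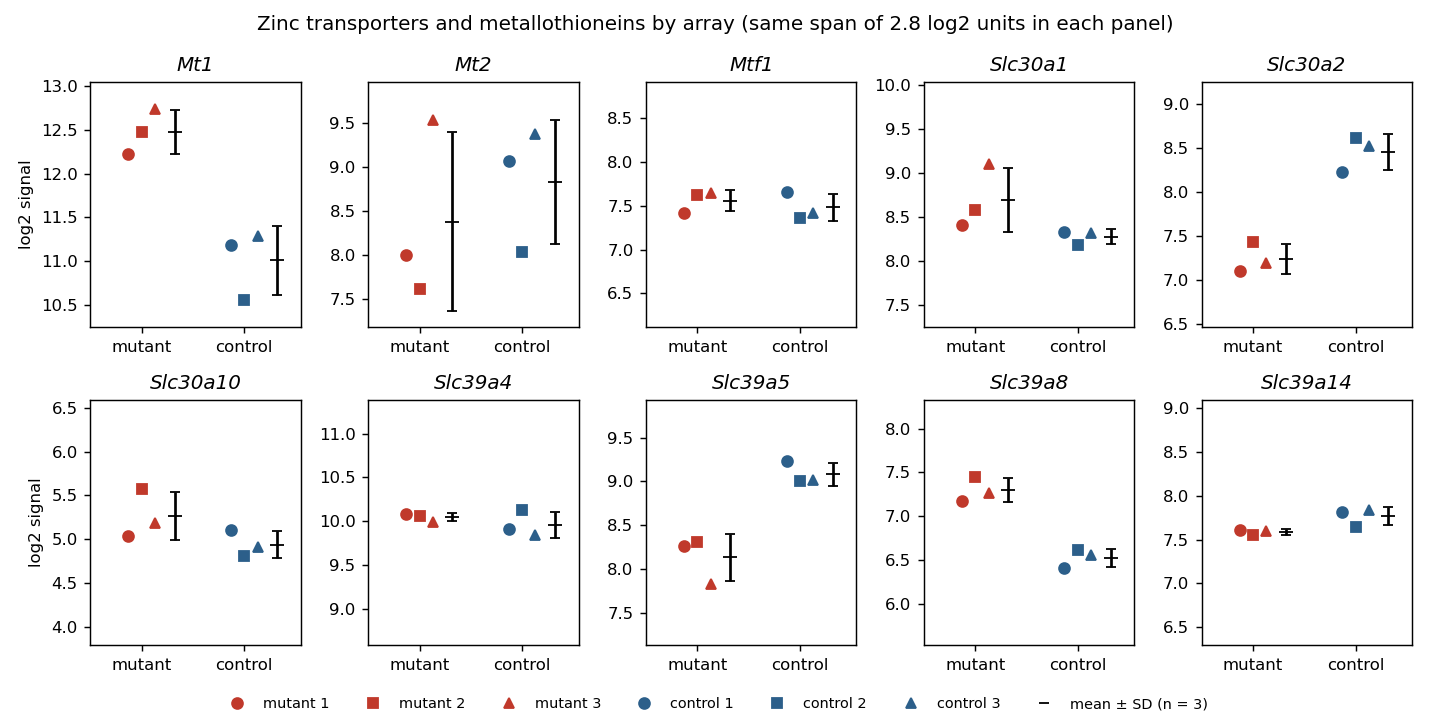
Log2 signal of the 10 members on each of the 6 arrays, with mutants at the left and controls at the right of each panel. Symbols mark the animals and bars the mean ± SD of 3. Mt1 and Slc39a8 sit higher in every mutant than in any control, Slc30a2 and Slc39a5 sit lower, and the Mt2 values of the groups run across each other.

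Mt1 encodes the main inducible metallothionein of the gut together with Mt2. Its log2 signal was 12.23, 12.47 and 12.73 in mutants 1, 2 and 3, against 11.18, 10.56 and 11.29 in controls 1, 2 and 3. Every mutant lay above every control, with the nearest pair almost 1 log2 unit apart. The mean was 12.48 ± 0.25 in mutants and 11.01 ± 0.39 in controls (SD, n = 3 each), a 2.76-fold rise (log2 difference 1.46 ± 0.21 SE, limma's adjusted p = 0.0307). The call was lost without mutant 2 (limma's adjusted p = 0.105), mutant 3 (0.0617), control 1 (0.0681), control 2 (0.0687) or control 3 (0.0923), while the log2 difference stayed between 1.24 and 1.60 with any 1 array left out. The other Mt1 probe set was far dimmer, at 4.68, 4.60 and 5.59 in mutants and 4.40, 4.39 and 4.37 in controls. Its groups did not overlap either, with mutant 3 well above all other arrays, but with every probe set tested it was not called (log2 difference 0.57 ± 0.24 SE, limma's adjusted p = 0.468). The mean of both probe sets gave a log2 difference of 1.01 with limma's adjusted p = 0.0943. The brighter one has a name ending in _s_at, which in Affymetrix naming marks probes that can match more than a single transcript, so a share of related metallothionein RNA in its signal cannot be told apart.

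Mt2, which in mouse tissues is usually induced along with Mt1, did not pass the test. In mutants 1, 2 and 3 it read 7.99, 7.61 and 9.54 (log2), against 9.07, 8.03 and 9.38 in controls 1, 2 and 3. Both groups spanned more than 1 log2 unit and overlapped across most of their range, and mutant 3 had the highest value of all. The log2 difference was -0.45 ± 0.51 SE (limma's adjusted p = 0.808), with a 95% interval from -1.63 to 0.73, which is too wide to place Mt2 as higher, lower or alike. Single arrays decided its size. It was -1.03 without mutant 3 (limma's adjusted p = 0.330, unadjusted p = 0.0223), -0.85 without control 2, -0.33 without control 1, -0.25 without mutant 1, -0.17 without control 3 and -0.06 without mutant 2, and it was 0.21 without control 3 and mutant 2 together (limma's adjusted p = 0.962). Mt2 had a single probe set, so no second reading was at hand.

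The gap between the Mt1 and Mt2 readings within an array was used to compare their changes, since it carries no meaning as a level. It was 4.23, 4.87 and 3.19 in mutants 1, 2 and 3, against 2.11, 2.53 and 1.91 in controls 1, 2 and 3 (log2). The groups did not overlap, and the difference of the gaps was 1.91. An exact two-sided permutation test over the arrays gave p = 0.10, the smallest this test can give with 3 against 3 animals, so it could not pass 0.05 whatever the values. Within each group the array with the highest Mt1 also had the highest Mt2, namely mutant 3 and control 3.

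**Figure D2:**
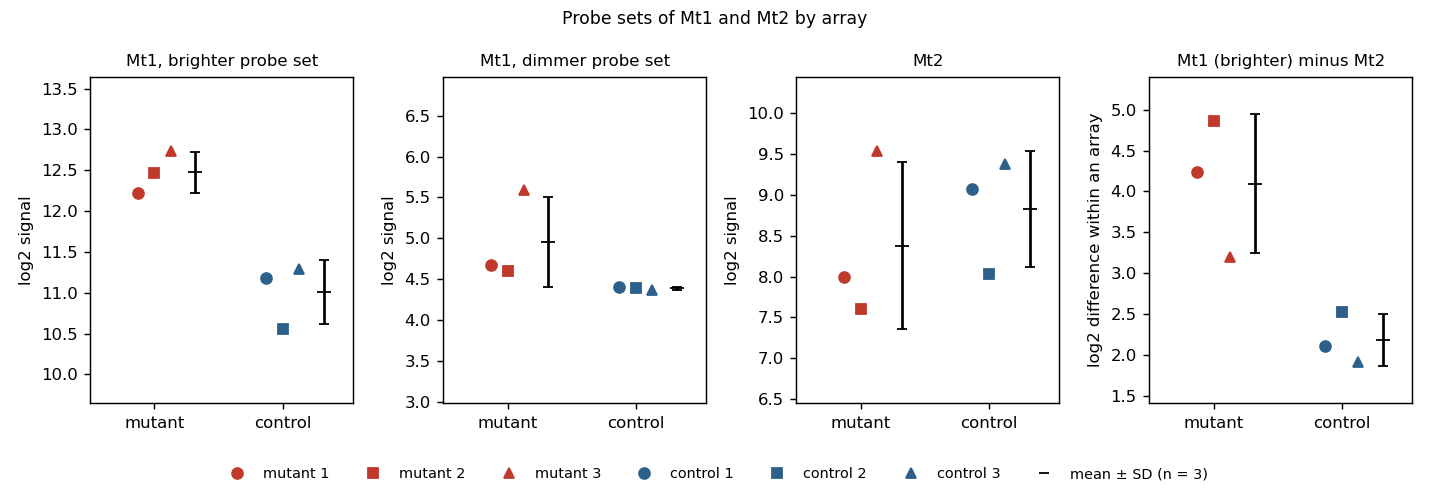
Log2 signal of the 2 Mt1 probe sets and the Mt2 probe set by array, and the log2 gap between the brighter Mt1 probe set and Mt2 within each array. Mutants stand at the left and controls at the right, and bars give the mean ± SD of 3. The gap runs from 3.19 to 4.87 in mutants and from 1.91 to 2.53 in controls.

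The other metallothionein genes gave no call. Mt3, known from brain, differed by 0.08 ± 0.10 SE, and Mt4, known from stratified squamous epithelium, by -0.08 ± 0.11 SE and read under the median probe set on all arrays (log2, limma's adjusted p = 0.810 and 0.848). Mtf1 itself read 7.42, 7.62 and 7.64 in mutants 1, 2 and 3, against 7.66, 7.37 and 7.42 in controls 1, 2 and 3. The groups overlapped, the log2 difference was 0.08 ± 0.12 SE (limma's adjusted p = 0.868), and the 95% interval ran from -0.20 to 0.36. The other 4 Mtf1 probe sets differed by 0.03 to 0.18 (log2), and none passed. Those at 0.06 and 0.18 read under the median probe set on all arrays.

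Among the exporters Slc30a2 fell. It encodes ZnT2, which loads zinc into vesicles and in mouse intestine is known from the granules of Paneth cells, the antimicrobial cells at the crypt base. Its log2 signal was 7.09, 7.43 and 7.19 in mutants 1, 2 and 3, against 8.23, 8.62 and 8.53 in controls 1, 2 and 3. Each group kept within 0.4 log2 units or less, and the groups lay wide apart. The mean was 7.24 ± 0.17 in mutants and 8.46 ± 0.20 in controls (SD, n = 3 each), which was 2.33-fold lower (log2 difference -1.22 ± 0.14 SE, limma's adjusted p = 0.0137). The call held without control 1 or any single mutant and was lost without control 2 (log2 difference -1.14, limma's adjusted p = 0.0687) or control 3 (-1.19, 0.0981). Slc30a2 had a single probe set.

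No Paneth cell marker passed the test. The 6 measured averaged a log2 signal of 12.08, 12.20 and 12.20 in mutants 1, 2 and 3, against 11.81, 11.97 and 11.93 in controls 1, 2 and 3, higher in every mutant than in any control. The matrix protease gene Mmp7 differed by 0.64 and the surface glycoprotein gene Cd24a by 0.37, while the lysozyme gene Lyz1 differed by -0.31 (log2, limma's adjusted p = 0.185, 0.265 and 0.231). Slc30a2 is also active in the pancreas, and control 3 carried acinar transcripts. Its Slc30a2 value lay between those of the other controls, and without control 3 the log2 difference was -1.19. The part of acinar or Paneth cells in the Slc30a2 result was not tested.

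Slc30a1 encodes ZnT1, the exporter of the plasma membrane and a known MTF1 target. It read 8.40, 8.58 and 9.11 (log2) in mutants 1, 2 and 3, against 8.33, 8.17 and 8.32 in controls 1, 2 and 3. The lowest mutant lay just above the highest control and mutant 3 well above the rest. The log2 difference of 0.42 ± 0.18 SE did not pass (limma's adjusted p = 0.395, unadjusted p = 0.0450), and without mutant 3 it was 0.21. The dimmer Slc30a1 probe set read 5.85, 5.87 and 6.49 in mutants and 5.90, 5.44 and 5.88 in controls, again with mutant 3 highest (log2 difference 0.33 ± 0.20 SE, limma's adjusted p = 0.645).

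Slc30a10 encodes a ZnT family member known in human and mouse mainly as an exporter of manganese. In mutants 1, 2 and 3 the log2 signal was 5.04, 5.57 and 5.19, against 5.10, 4.81 and 4.91 in controls 1, 2 and 3. Mutant 1 lay below control 1, so the groups overlapped, and the log2 difference of 0.33 ± 0.16 SE did not pass (limma's adjusted p = 0.470). Without mutant 2 it was 0.17, and 0.16 without control 3 and mutant 2 together. The dimmer probe set differed by 0.37 ± 0.22 SE (limma's adjusted p = 0.623).

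Of the importers, Slc39a8 rose and Slc39a5 fell. Slc39a8 encodes ZIP8, which carries zinc and manganese. Its log2 signal was 7.18, 7.45 and 7.27 in mutants 1, 2 and 3, against 6.41, 6.61 and 6.56 in controls 1, 2 and 3. The groups were separate, with a spread inside each of less than 0.3. The mean was 7.30 ± 0.14 in mutants and 6.53 ± 0.11 in controls (SD, n = 3 each), a 1.71-fold rise (log2 difference 0.77 ± 0.11 SE, limma's adjusted p = 0.0321). The call was lost without mutant 2 (limma's adjusted p = 0.0995), mutant 3 (0.0617), control 1 (0.0938), control 2 (0.109) or control 3 (0.166), with log2 differences between 0.70 and 0.83 over the 6 refits. The other Slc39a8 probe set read under the median probe set on all arrays, from 2.69 to 3.31, where signal is close to background, and differed by 0.14 ± 0.20 SE. With the mean of both probe sets the log2 difference was 0.46 (limma's adjusted p = 0.195).

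ZIP8 is also made by T cells and myeloid cells, for which 7 of 7 and 5 of 6 measured markers lay above the control mean in the mutants. The myeloid marker that lay below it was the lysozyme gene Lyz2 (log2 difference -0.35, limma's adjusted p = 0.259). The median log2 difference was 0.87 for the T cell list and 0.30 for the myeloid list, against -0.01 for all genes. The 7 T cell markers averaged 7.65, 8.57 and 8.03 (log2) in mutants 1, 2 and 3, against 7.91, 6.40 and 7.16 in controls 1, 2 and 3, and 0 passed the test. The 6 markers of macrophages and other myeloid cells averaged 7.15, 7.42 and 7.21 in mutants, against 7.09, 6.98 and 7.00 in controls, and again 0 passed. The T cell means of the groups overlapped, through control 1, while the myeloid means were higher in every mutant than in any control. The part of these cells in the Slc39a8 signal was not tested.

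Slc39a5 encodes ZIP5, which in mouse enterocytes and pancreatic acinar cells sits on the basolateral side, facing the blood. Its log2 signal was 8.26, 8.31 and 7.83 in mutants 1, 2 and 3, against 9.23, 8.999 and 9.01 in controls 1, 2 and 3. All mutants lay below all controls, mutant 3 lowest. The mean was 8.13 ± 0.26 in mutants and 9.08 ± 0.13 in controls (SD, n = 3 each), which was 1.93-fold lower (log2 difference -0.95 ± 0.15 SE, limma's adjusted p = 0.0447). The call stood close to the threshold. It was lost without mutant 1 (limma's adjusted p = 0.0660), mutant 2 (0.0860), mutant 3 (0.0548), control 1 (0.112), control 2 (0.138) or control 3 (0.188), with log2 differences between -1.03 and -0.79. It was also lost under quantile normalisation (0.0569) and median centring of the arrays (0.0559). Control 3, which carried acinar transcripts, read close to control 2, and without control 3 the log2 difference was -0.98. The part of acinar cells in the Slc39a5 result was not tested. Enterocyte markers lay lower in the mutants too, with 8 of 8 below the control mean, a median log2 difference of -0.13 and 0 past the test. Among them the lactase gene Lct differed by -0.61, the peptidase gene Anpep by -0.53 and the alkaline phosphatase gene Alpi by -0.20 (log2, limma's adjusted p = 0.256, 0.543 and 0.578), and the part of such a shift in the Slc39a5 result was not tested.

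Slc39a4 encodes ZIP4, the apical zinc importer whose loss causes acrodermatitis enteropathica in humans. The gene read 10.08, 10.07 and 9.996 (log2) in mutants 1, 2 and 3, against 9.91, 10.12 and 9.84 in controls 1, 2 and 3. The groups overlapped within a narrow range. The log2 difference was 0.09 ± 0.11 SE (limma's adjusted p = 0.823), and its 95% interval ran from -0.16 to 0.34.

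Slc39a14 encodes ZIP14, which carries manganese, iron and zinc. The log2 signal was 7.61, 7.55 and 7.60 in mutants 1, 2 and 3, against 7.82, 7.65 and 7.83 in controls 1, 2 and 3. The highest mutant lay just under the lowest control, yet the log2 difference of -0.18 ± 0.10 SE did not pass (limma's adjusted p = 0.543). The other 3 probe sets of the gene differed by -0.10, -0.06 and 0.10 (log2), and none passed. The one at 0.10 read under the median probe set on all arrays.

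**Figure D3:**
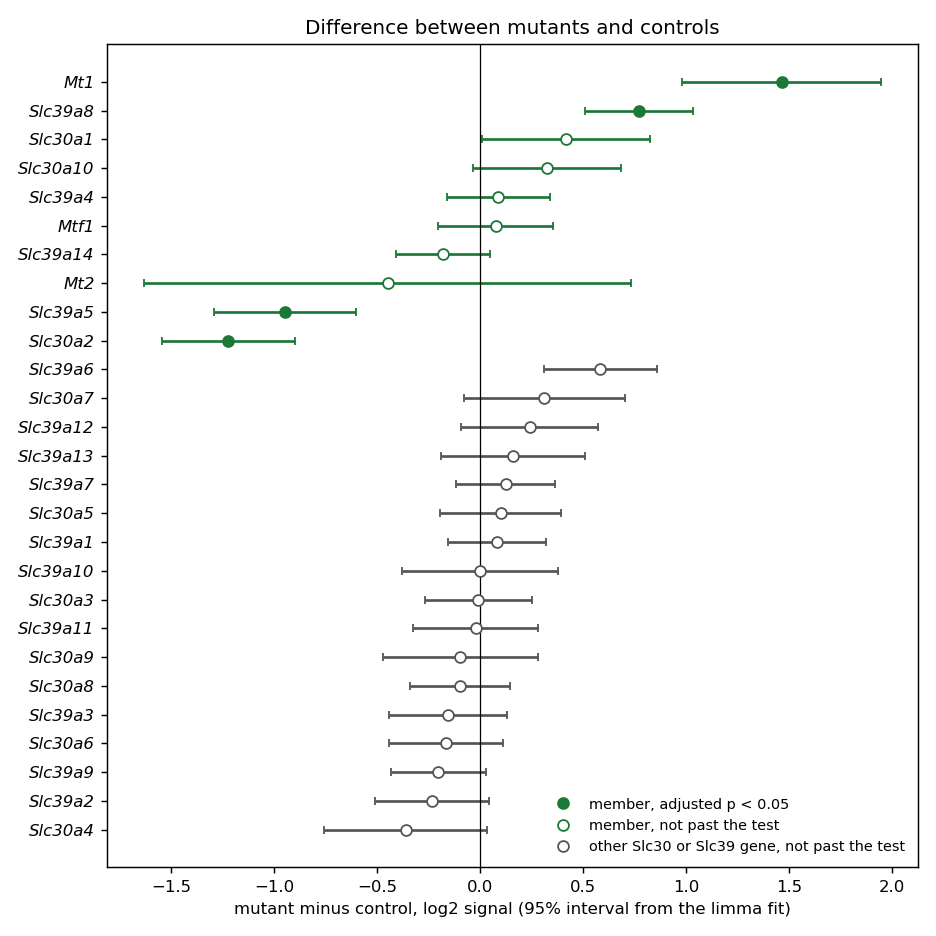
Log2 signal of mutants minus that of controls for the 10 members and the 17 other measured Slc30 and Slc39 genes, with 95% intervals from the limma fit. Filled points passed limma's test at an adjusted p under 0.05. The 4 filled points, Mt1, Slc39a8, Slc39a5 and Slc30a2, are all members, and no other Slc30 or Slc39 gene passed. Members were chosen with earlier results of these data known, and 0.528% of all genes passed, so this contrast is only a description.

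The remaining genes of both zinc transporter families gave no call. Of 17 other Slc30 and Slc39 genes measured, 0 rose, 0 fell and 17 did not pass limma's test, which 0.528% of all genes passed. At an unadjusted p under 0.05, 1 lay higher and 0 lower, beside 5.24% and 6.85% of all genes. The 1 was Slc39a6, which encodes the plasma membrane importer ZIP6 and read 5.96, 6.24 and 6.32 in mutants 1, 2 and 3, against 5.61, 5.63 and 5.53 in controls 1, 2 and 3 (log2 difference 0.58 ± 0.12 SE, limma's adjusted p = 0.0927). Slc30a4, for the vesicular carrier ZnT4, differed by -0.36 ± 0.17 SE, and Slc39a9, for the Golgi carrier ZIP9, by -0.20 ± 0.10 SE (limma's adjusted p = 0.468 and 0.481). The differences ran from -0.36 to 0.58 with a median of -0.01 (log2), the same to 2 decimals as that of all genes.

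Other genes reported as MTF1 targets in mouse or human cells gave no call. Of 7 measured, which include Slc39a10 and Slc40a1 from the transporter and iron lists, 0 rose, 0 fell and 7 did not pass limma's test. None, 0 of 7, had an unadjusted p under 0.05, which 12.1% of all genes had. The median log2 difference was -0.01, which takes no account of the direction in which MTF1 acts on each gene. The cytoskeletal gene Csrp1 differed by 0.30 ± 0.13 SE, the selenoprotein gene Selenow by -0.12 ± 0.12 SE and Gclc, for the catalytic subunit of glutathione synthesis, by -0.03 ± 0.22 SE (limma's adjusted p = 0.416, 0.765 and 0.979).

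Copper and iron handling gave no call either. Of 15 genes measured, 0 rose, 0 fell and 15 did not pass limma's test. By the unadjusted p under 0.05, 1 lay higher and 4 lower, beside 5.24% and 6.85% of all genes. Fth1, for the ferritin heavy chain, differed by -0.54 ± 0.13 SE, Ccs, for the copper chaperone of superoxide dismutase, by -0.55 ± 0.14 SE, and the ceruloplasmin gene Cp by 0.54 ± 0.22 SE (log2, limma's adjusted p = 0.149, 0.170 and 0.368). The median was -0.04.

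Metallothionein genes are known to respond to glucocorticoids and to inflammatory cytokines as well as to zinc, so genes of both responses were read beside them. Of 11 glucocorticoid-responsive genes, 0 rose, 0 fell and 11 did not pass limma's test. At an unadjusted p under 0.05, 7 lay higher and 2 lower, beside 5.24% and 6.85% of all genes. Their median log2 difference was 0.60, against -0.01 for all genes. Their mean log2 signal was 8.62, 9.04 and 8.77 in mutants 1, 2 and 3, against 8.24, 8.38 and 8.42 in controls 1, 2 and 3, so the groups did not overlap. The median and the means take no account of the direction in which each gene is known to respond. Sgk1, a kinase of sodium transport, differed by 0.76 ± 0.23 SE (limma's adjusted p = 0.234). The glucocorticoid receptor gene Nr3c1 differed by -0.49 ± 0.12 SE and the sulfotransferase gene Sult1d1 by -0.55 ± 0.14 SE (limma's adjusted p = 0.149 and 0.170). The part of such a response in the Mt1 result was not tested.

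Of 13 genes of the STAT3 and acute-phase response, 0 rose, 0 fell and 13 did not pass limma's test. With 5 higher and 0 lower at an unadjusted p under 0.05, the list stood beside 5.24% and 6.85% of all genes. The median log2 difference of the list was 0.46, against -0.01 for all genes. Reg3g, a bactericidal lectin gene, differed by 0.87 ± 0.20 SE, the transcription factor gene Cebpd by 1.83 ± 0.51 SE and the siderophore-binding lipocalin gene Lcn2, which read under the median probe set, by 0.38 ± 0.12 SE (limma's adjusted p = 0.127, 0.196 and 0.238). All 13 lay above the control mean in the mutants. Their mean log2 signal was 6.64, 6.63 and 7.53 in mutants 1, 2 and 3, against 6.44, 6.37 and 6.20 in controls 1, 2 and 3, so the groups did not overlap and mutant 3 was the highest. Cebpd read 7.90, 8.13 and 10.12 in mutants 1, 2 and 3, against 6.98, 6.81 and 6.87 in controls 1, 2 and 3. Socs3, a feedback inhibitor of STAT3 chosen after its values were seen, read 6.76, 7.77 and 10.71 in mutants, against 7.14, 7.50 and 7.04 in controls. Mutant 3 also had the highest Mt1, Mt2 and Slc30a1 values of all arrays, and without it the log2 difference of Mt1 was 1.34. By the mean of this list the other mutants also lay above the controls, and the part of this response in the Mt1 result was not tested.

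**Figure D4:**
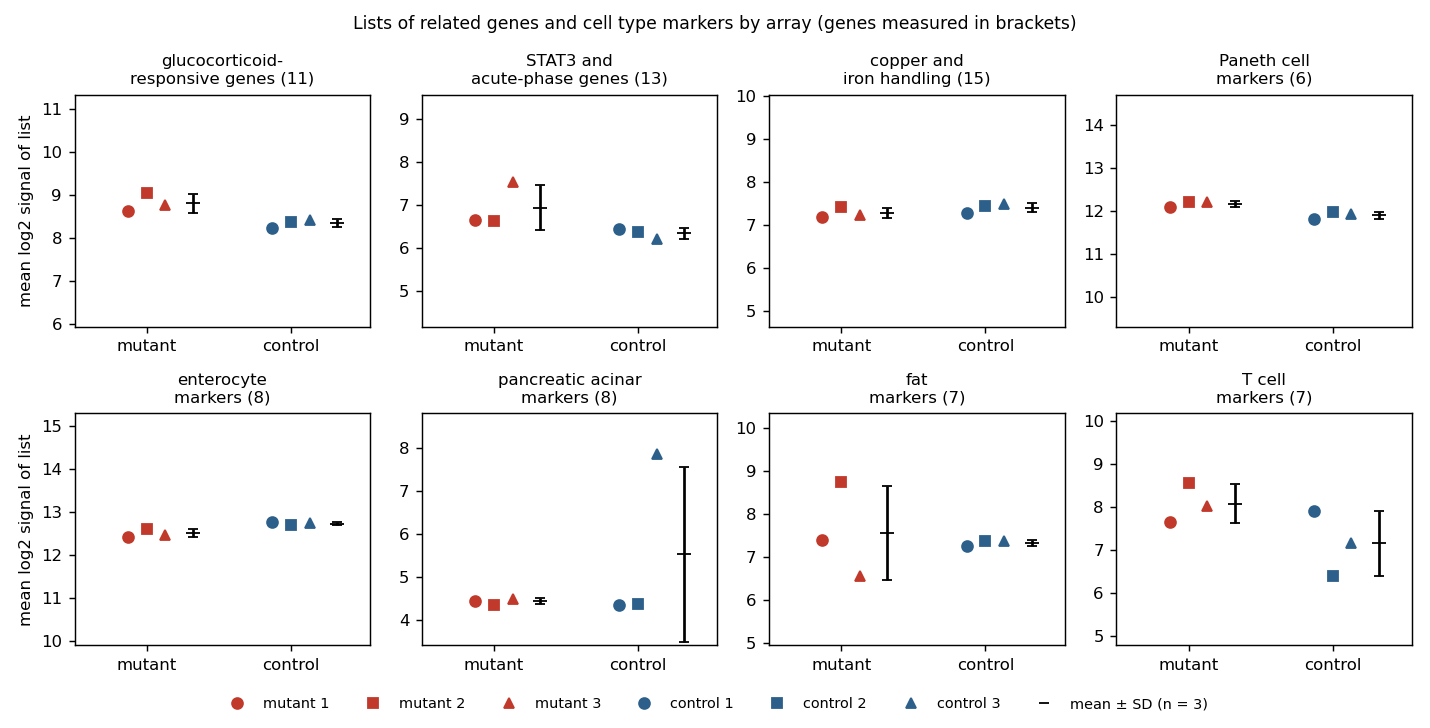
Mean log2 signal of 3 lists of related genes and 5 lists of cell type markers on each array, with mutants at the left and controls at the right. Bars give the mean ± SD of 3. The means of the glucocorticoid-responsive and the STAT3 list lie higher in all mutants than in any control, the STAT3 list peaks in mutant 3, acinar markers peak in control 3 and fat markers in mutant 2.

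The genes most like Mt1 over the 6 arrays were sought among 9095 genes whose mean exceeded the median gene, by the Euclidean distance between log2 values after each gene had been centred on its own mean. The nearest were the chemokine gene Ccl8 at a distance of 0.488, the uncharacterised transcript 2210407C18Rik at 0.517, the endoplasmic reticulum membrane protein gene Ckap4 at 0.760, the tubulin gene Tubb2a at 0.763 and Marcksl1, a gene of the MARCKS family of actin-binding proteins, at 0.768. Among the members Slc39a8 came closest, at 1.13 and rank 93, followed by Slc30a1 at 1.37 and rank 289. Mt2 lay at 2.67 and rank 8780, near the far end of the order, with Slc39a5 and Slc30a2 beyond it at 3.08 and 3.40. This distance carries the group difference and the spread of each gene, so the order is no evidence apart from the calls.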

How the data were processed

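Total RNA of the jejunum of 3 mutant and 3 control mice was measured on Affymetrix arrays, 1 per animal. The authors deposited 1 log2 signal per probe set and array. The scale was read from the values, and the sources used here give neither the background correction, nor the summarisation, nor the normalisation. Array medians lay between 3.93 and 3.98, so no further normalisation was applied. A compressed or saturated signal would understate differences of very dim or very bright probe sets, and the number of arrays limits the precision.

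Of 45101 probe sets, 64 Affymetrix controls were left out. The platform annotation gave 34945 of the others 1 symbol, 932 several and 9160 none listed. The brightest probe set with 1 symbol stood for each gene, which left 18193 genes.

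Groups were compared with limma 3.58.1 (lmFit, eBayes) in R 4.3.3. The model held only the group, tests were two-sided, p-values were adjusted by Benjamini-Hochberg over the 18193 genes, and the code was tested on simulated data. The members and lists were chosen with earlier results of these data known. Lists of related genes, 6 in all, and 11 marker lists are described by counts and medians, without set tests. Genes named are Hnf4a, the 10 members and the 5 genes most like Mt1. For each list of related genes, those past the test are named, or else up to 3 with the smallest p. The acinar and fat marker lists, which stand apart on 1 array each, are given by their means. The Paneth cell and enterocyte markers named, 3 each with the smallest p, Lyz2 and Socs3 were added after their values were seen. Same-numbered animals did not deviate together (correlations 0.06, -0.02 and -0.003), so replicate numbers were not used as pairs. Alternatives covered normalisation, dim signals, the choice of probe set, the variance model, covariates, thresholds and the arrays used. Sequences are RefSeq promoter windows of GRCm38.p6. The series names no genome build.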

Additional observations from a re-analysis of the deposited data

How the results depend on the processing

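The 4 called members kept their direction under all 19 alternatives, and the calls were less stable. Slc30a2 missed the threshold with a floor at the 20th percentile (-1.22, limma's adjusted p = 0.0615), in an unmoderated test (-1.22, 0.267) and without control 3 and mutant 2 together (-1.28, 0.205). Under these 3 settings Mt1 also missed it (1.46, 0.113; 1.46, 0.340; 1.61, 0.303), as did Slc39a8 (0.77, 0.0720; 0.77, 0.267; 0.72, 0.415) and Slc39a5 (-0.95, 0.113; -0.95, 0.334; -1.07, 0.344). Averaging the probe sets of a gene ended the calls of Mt1 (1.01, 0.0943) and Slc39a8 (0.46, 0.195). Slc39a5 missed the threshold under quantile normalisation (-0.91, 0.0569), median centring (-0.94, 0.0559), the most variable probe set (-0.95, 0.0559) and with every probe set tested (-0.95, 0.0636). With the replicate number as a block, which the check of deviations did not bear out as a pairing, Slc39a8 (0.77, 0.0566) and Slc39a5 (-0.95, 0.0648) missed it, 1 member was called higher and 1 lower, and 23 and 39 of all genes. Mt2 changed sign without control 3 and mutant 2 together (0.21). The floor lay below every value of the 4 called members, so it left their log2 differences unchanged and altered only their tests. The cause of the other shifts was not tested.

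With 1 array left out, the log2 difference ran from -1.34 to -1.14 for Slc30a2, from -1.03 to -0.79 for Slc39a5, from 0.70 to 0.83 for Slc39a8 and from 1.24 to 1.60 for Mt1, with 0 to 2 members called higher and 0 to 1 lower. Of all genes 7 to 45 were then called higher, against 36 with all arrays, and 15 to 51 lower, against 60; the glucocorticoid and STAT3 lists each had 0 to 1 called higher. Fewer arrays also give less power. Otherwise the members called higher numbered 0 with the floor, the mean of probe sets, the unmoderated test, without control 3 and mutant 2 together and at an adjusted p under 0.01. Those called lower numbered 0 with the floor, the unmoderated test, without that pair and at 0.01, and 1 under quantile normalisation, median centring, the most variable probe set and every probe set tested. Of all genes the floor gave 3 higher and 8 lower, the unmoderated test 0 and 2, the omitted pair 1 and 3, the Y-linked covariate (3 genes) 68 and 128, a threshold of 0.10 gave 102 and 146, and 0.01 gave 5 and 15. Array weights gave 62 higher. At 0.10, 1 other Slc30 or Slc39 gene was called higher.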
